A study of Parhyale hawaiensis with 10 samples.

Results

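Peaks of accessible chromatin in whole embryos of the amphipod crustacean Parhyale hawaiensis were set against peaks obtained from naked DNA of the same species. The members were all 237035 peaks of the embryo libraries of stage 20 (60435 peaks), stage 23 (56606 peaks) and stage 24 (119994 peaks), out of 856814 peaks in the 10 libraries of the series. Each was sorted by whether at least 1 bp of it overlapped any of the 161533 naked DNA peaks. Peaks with such an overlap are called naked-overlapping below, and all remaining embryo peaks are called other peaks.

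ATAC-seq uses the Tn5 transposase, which inserts sequencing adapters where DNA is not covered by nucleosomes or other proteins, so promoters and enhancers give peaks in nuclei. The enzyme also has sequence preferences of its own, and collapsed repeats in an assembly collect reads from several copies. Tagmentation of DNA stripped of its proteins records those effects without chromatin, and naked DNA is therefore a common control for the assay.

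All animals were of the inbred Chicago-F line, per the labels. Each embryo library came from 1 embryo, whose cells were tagmented for 30 minutes at 37 °C after lysis, and no stage has a replicate. The naked DNA library came from a whole adult, so control and embryos differ in age as well as in chromatin. Presence was also read in 3 libraries of embryonic T4 to T8 legs, each from 30 to 40 legs of pooled embryos at stages 25 to 26, and in 3 libraries of uninjured adult T4 and T5 legs, and the labels name no transgene or treatment. No genome or annotation was used here, so peaks are given by scaffold and position without genes or sequence.

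Depth differed widely. The background pileup, the number of fragments expected over a base away from peaks, was 0.404 at stage 20, 0.233 at stage 23, 0.555 at stage 24 and 5.11 in naked DNA, as recovered from the deposited values. Naked DNA was thus by far the deepest list, and stage 23 the shallowest of the embryos. The narrowest peak measured 137 bp at stage 20, 149 bp at stage 23, exactly 200 bp at stage 24 and 278 bp in naked DNA. Widths at stage 24 may therefore not be on the scale of the earlier stages, and differences between stages have no replicate check.

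The first question was how much of the embryonic peak set lay where naked DNA also gave a peak. At stage 20, 18169 peaks overlapped naked DNA, which was 30.1% of the list (95% Wilson interval 29.7% to 30.4%). At stage 23 there were 14857 such peaks (26.2%, interval 25.9% to 26.6%), and at stage 24 there were 18736 (15.6%, interval 15.4% to 15.8%). The number of naked-overlapping peaks was thus similar at stages 20 and 24, while other peaks numbered 42266 at stage 20, 41749 at stage 23 and 101258 at stage 24. Of the sequence under embryo peaks, 33.6% at stage 20, 27.0% at stage 23 and 13.1% at stage 24 lay inside naked DNA peaks. These intervals and those that follow cover counting error only.

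The overlaps were seldom marginal. At stage 20, 66.5% of naked-overlapping peaks lay wholly inside naked DNA peaks, at stage 23 65.5% and at stage 24 43.7%. The naked DNA peaks that they overlapped most had median widths of 654, 648 and 620 bp at stages 20, 23 and 24. The embryo peaks themselves had medians of 278, 276 and 276 bp, and a narrow interval lies inside a wide one more readily. The summit of the embryo peak, the base with the most fragments, fell inside the naked DNA peak for 89.2%, 87.6% and 79.4% of them at stages 20, 23 and 24. The summits themselves coincided less closely, with a median distance of 108 bp at stage 20, 114 bp at stage 23 and 178 bp at stage 24. Just inside the rule, 105 peaks at stage 20, 116 at stage 23 and 197 at stage 24 overlapped naked DNA by at most 10 bp. Just outside it, 147, 141 and 240 other peaks lay within 10 bp of a naked DNA peak.

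Naked-overlapping peaks were wider at each stage, most at stage 20. Their median width at stage 20 was 278 bp (95% interval of the median 275 to 281 bp) against 206 bp (205 to 206 bp) for other peaks, a ratio of 1.35. At stage 23 it was 276 bp (273 to 279 bp) against 219 bp (218 to 220 bp), a ratio of 1.26. At stage 24 it was 276 bp (274 to 278 bp) against 257 bp (257 to 258 bp), a ratio of 1.07. The naked-overlapping median was thus nearly the same at each stage, whereas that of other peaks differed. The narrowest peak of the lists also differed, at 137, 149 and 200 bp, and its part in this was not tested. The widest naked-overlapping peak reached 3004 bp at stage 20, 1916 bp at stage 23 and 1498 bp at stage 24.

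A wide peak meets another interval more readily than a narrow one, so the share was also read within groups of width. At stage 20 the share rose from 19.5% among peaks of 200 bp or less to 76.7% among those over 600 bp, and at stage 23 from 18.6% to 58.9%. At stage 24 it was 13.8% among the narrowest, 13.4% at 201 to 250 bp and 38.2% among those over 600 bp. The order of stages was the same in each of the 6 groups of width.

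**Figure D1:**
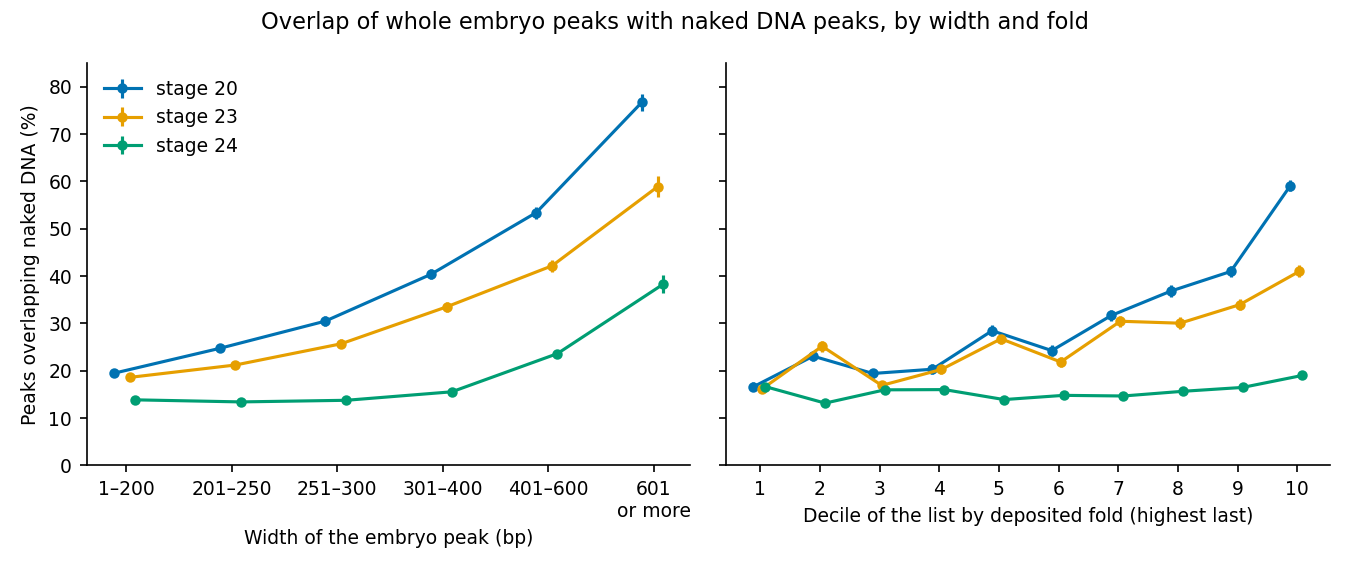
Share of whole embryo peaks that overlap a naked DNA peak (y axis, percent) by the width of the embryo peak in bp (left) and by the decile of each list ranked on deposited fold (right), 1 line a stage with 95% Wilson intervals. Stage 20 climbs to 76.7% in the widest group and 59.1% in the highest decile of fold, whereas stage 24 stays between 13.1% and 19.0% over the deciles of fold.

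The deposited fold of a peak is its summit pileup over the pileup expected there, with the same constant added to both pileups. It therefore lies below the plain ratio of the pileups. At stage 20 the median fold was 5.09 in naked-overlapping and 4.27 in other peaks, and at stage 23 it was 4.86 and 4.10. At stage 24 both medians were 5.79. At stage 20, 41.2% of naked-overlapping and 20.9% of other peaks reached a q-value of 1e-05 or less. At stage 23 the shares were 37.7% and 23.8%, and at stage 24 they were 62.2% and 62.8%. By median fold and by q-value, excess strength of naked-overlapping peaks was thus seen at the earlier stages and not at stage 24. Among the strongest peaks of stage 24 a small excess remained. The 90th percentile of fold was 12.2 in naked-overlapping and 11.3 in other peaks. In the highest decile of fold, 19.0% of peaks overlapped naked DNA (95% Wilson interval 18.3% to 19.7%), against 15.6% of the whole list. The summits rested on few fragments, with a median pileup of 7 against 6 at stage 20, 6 against 5 at stage 23 and 10 against 11 at stage 24.

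Peaks with several summits were more frequent where naked DNA also gave a peak. At stage 20, 9.30% of naked-overlapping peaks (1690) and 1.47% of other peaks (620) had more than 1 summit, a difference of 7.83 percentage points (95% Newcombe interval 7.40 to 8.28). At stage 23 the shares were 4.89% and 1.45%, and at stage 24 they were 5.67% and 1.97%. The peak with the most summits overlapped naked DNA at stage 20, where it held 13, and at stage 23, where it held 6, while at stage 24 an other peak held 6. Much of this went with width. With other peaks weighted to the widths of naked-overlapping peaks, the share in other peaks was 5.40% at stage 20, 3.93% at stage 23 and 4.89% at stage 24.

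Spacing was measured as the distance from edge to edge to the nearest other peak of the same list. A peak alone on its scaffold in its list has no such distance and was left out. This left 14114 of the 18169 naked-overlapping and 38762 of the 42266 other peaks at stage 20. It left 11636 of 14857 and 38434 of 41749 at stage 23, and 16590 of 18736 and 95339 of 101258 at stage 24. The median distance at stage 20 was 8242 bp for naked-overlapping peaks (95% interval of the median 7976 to 8467 bp) and 13280 bp for other peaks (13091 to 13464 bp), a ratio of 0.621. At stage 23 it was 10503 bp against 14576 bp, a ratio of 0.721. At stage 24 the medians were 5970 bp and 5904 bp, and their intervals overlapped (5843 to 6089 bp and 5865 to 5953 bp). The ratio at stage 24 lay at 1.01, but it was 0.989 when 50% of the shorter interval had to be shared and 0.796 with naked DNA peaks of a q-value of at most 1e-05, so its direction depended on the rule.

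Close neighbours separated the classes at all 3 stages, stage 24 included. Shares here are of peaks with another peak of their list on the scaffold. A neighbour within 500 bp was found for 14.3% of naked-overlapping and 3.60% of other peaks at stage 20. At stage 23 these shares were 9.77% and 2.30%, and at stage 24 they were 15.9% and 5.30%. The neighbour was more often naked-overlapping for naked-overlapping than for other peaks. Among peaks with a neighbour on the scaffold at stage 20, the nearest was itself naked-overlapping for 50.4% of naked-overlapping and 18.7% of other peaks. At stage 23 these shares were 45.0% and 16.8%, and at stage 24 they were 36.0% and 10.99%. Among naked-overlapping peaks with a neighbour within 1000 bp, that neighbour overlapped naked DNA in 83.3% of cases at stage 20, 83.3% at stage 23 and 72.7% at stage 24. Peaks close together can lie on the same naked DNA peak, which puts both in the class. At stages 20, 23 and 24, 18169, 14857 and 18736 naked-overlapping peaks met 17037, 14195 and 17491 naked DNA peaks. Pairs on the same naked DNA peak were not set apart, so the neighbour shares need not reflect separate naked DNA peaks lying together. On scaffolds on which a peak of any list reached 1 Mb or beyond, the nearest peak was naked-overlapping for 45.4%, 39.9% and 31.3% of naked-overlapping peaks at stages 20, 23 and 24.

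Scaffold length is known here only through the farthest peak of any list, which is a lower bound. Of the 28600 scaffolds with a peak, 26271 had none beyond 10 kb and 158 had one at 1 Mb or beyond. On the former, short scaffolds, 55.5% of the 7645 peaks of stage 20 overlapped naked DNA (95% Wilson interval 54.3% to 56.6%), against 24.3% of the 49587 peaks on the longest scaffolds (24.0% to 24.7%). At stage 23 the shares were 51.6% and 21.3%, and at stage 24 they were 29.7% and 13.7%. Scaffolds that reached between 10 and 100 kb had the highest share at each stage, with 62.5% at stage 20, 56.2% at stage 23 and 44.8% at stage 24. Read the other way, short scaffolds held 23.3%, 22.1% and 13.4% of naked-overlapping peaks at stages 20, 23 and 24, and 8.06%, 7.37% and 5.87% of other peaks. The difference was as large with widths matched, since other peaks weighted to the same widths gave 7.19%, 6.92% and 5.59%. Within the longest scaffolds the naked-overlapping peaks were still wider, with medians of 261 against 206 bp at stage 20, 264 against 220 bp at stage 23 and 276 against 259 bp at stage 24.

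The strongest peaks of the longest scaffolds included both kinds. On scaffold phaw_50.283743b, the region from 2468139 to 2468595 had folds of 45.9, 44.8 and 34.8 at stages 20, 23 and 24 and lay on a naked DNA peak with a fold of 30.2. At a distance of 4794 bp on the same scaffold, the region from 2473390 to 2474069 had folds of 43.0, 41.7 and 31.2, with a naked DNA fold of 25.4. The region at 28626414 to 28626971 of phaw_50.283828a had folds of 40.2, 38.3 and 24.0, with a naked DNA fold of 31.6, and that at 633048 to 633483 of phaw_50.283869d had folds of 43.7, 33.4 and 20.8, with a naked DNA fold of 29.8. In these 4 regions, which lead all naked-overlapping regions called at all 3 stages there, the stage 24 fold was the lowest of the stages, although folds of different libraries are not on a common scale.

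The strongest region that met no naked DNA peak lay at 2482078 to 2482411 of phaw_50.283829a, with folds of 43.0, 39.0 and 17.2 at stages 20, 23 and 24. It was followed by 8507953 to 8508454 of phaw_50.283817a with 24.1, 19.2 and 27.5, by 3518784 to 3519121 of phaw_50.283873a with 24.4, 22.2 and 23.9, and by 1986167 to 1986541 of phaw_50.283815b with 30.0, 13.8 and 25.8. All 8 regions were called in each of the 6 leg libraries. Of all regions called at all 3 stages, on any scaffold, 54.4% of naked-overlapping and 48.0% of other regions were. The 8 regions were picked for high fold. In the highest decile of fold at stage 20, embryonic legs held on average 90.1% of naked-overlapping and 90.5% of other peaks. For adult legs these means were 87.9% and 76.7%. The strongest other peaks of single stages lay in the regions on phaw_50.283829a and phaw_50.283815b at stage 20 and on phaw_50.283829a and phaw_50.283873a at stage 23. At stage 24 they were 3216323 to 3216745 of phaw_50.283850c (fold 29.1) and 2593389 to 2593820 of phaw_50.283874c (fold 28.7), both also called at stages 20 and 23. The strongest naked-overlapping peaks of single stages lay in the region at 2468139 of phaw_50.283743b at each stage, in that on phaw_50.283869d at stage 20, and in that at 2473390 of phaw_50.283743b at stages 23 and 24.

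Windows of 100 kb rarely held many such regions of either kind. Of 3246 windows with a naked-overlapping region called at all 3 stages, 29 held 5 or more, and of 6556 windows with an other region, 55 held 5 or more. The windows at 3.9 to 4 Mb of phaw_50.283842 and at 3.5 to 3.6 Mb of phaw_50.283852 held 11 naked-overlapping regions each and none without naked DNA overlap. A window at 27.2 to 27.3 Mb of phaw_50.282260a held 10, again with no other region. The fullest window of other regions, at 54.2 to 54.3 Mb of phaw_50.283823c, held 8 and 1 naked DNA peak. Windows at 5.3 to 5.4 Mb of phaw_50.283562a and at 7.7 to 7.8 Mb of phaw_50.283815a held 7 such regions and 6 naked DNA peaks each.

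The next comparison asked whether peaks shared with naked DNA were also shared between stages. At stage 20, 62.4% of naked-overlapping peaks (95% Wilson interval 61.7% to 63.1%) and 53.9% of other peaks (53.5% to 54.4%) were called at another stage. At stage 23 the shares were 71.9% and 56.0%, and at stage 24 they were 59.6% and 31.9%. The differences were 8.44, 15.9 and 27.6 percentage points. The stage 20 difference was −1.19 points with other peaks weighted to the same widths and −3.32 points with other peaks weighted to the same folds. Among peaks with a q-value of at most 1e-05 in every nuclei list it was −13.7 points at stage 20 and 1.90 points at stage 23. With the same widths it was 8.24 points at stage 23 and 21.9 points at stage 24.

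Single pairs of stages showed where the sharing lay. Of the naked-overlapping peaks of stage 20, 47.3% were called at stage 23 against 28.9% of other peaks, a difference of 18.4 points (95% Newcombe interval 17.6 to 19.2). For stage 24 the shares were 46.7% and 49.6%, a difference of −2.94 points (−3.81 to −2.08). Of the naked-overlapping peaks of stage 23, 58.1% were called at stage 20 against 29.0% of other peaks, whereas 52.4% and 51.7% were called at stage 24 (a difference of 0.719 points, −0.216 to 1.65). Of the naked-overlapping peaks of stage 24, 47.9% were called at stage 20 against 20.7% of other peaks, a difference of 27.2 points, and 43.9% were called at stage 23 against 21.5%, a difference of 22.4 points. Naked-overlapping peaks of stage 24 were thus the more shared with both earlier stages, whereas those of stages 20 and 23 were the more shared with each other, but at stage 20 less and at stage 23 not detectably more with stage 24. With widths matched, presence at stage 24 was lower for naked-overlapping peaks, with 46.7% against 59.3% for stage 20 (−12.7 points) and 52.4% against 59.5% for stage 23 (−7.12 points).

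The same appeared in regions merged from the 3 lists. Of 172265 such regions, 32345 (18.8%) overlapped naked DNA. The share was 61.6% (95% Wilson interval 60.1% to 63.0%) among the 4473 regions called at stages 20 and 23 and not at 24. It was 21.4% among the 13051 regions of stages 20 and 24 and 16.4% among the 13052 regions of stages 23 and 24. Regions of all 3 stages, 16300 in number, had 37.2%, and regions of 1 stage had 26.0% at stage 20, 18.5% at stage 23 and 9.90% at stage 24. The interval for stages 20 and 23 lay above those of both other pairs. These intervals count regions, and with 1 library a stage they cannot say how far libraries of a stage differ. Of its naked-overlapping regions, 43.9% lay on short scaffolds, against 26.9% of its other regions and 20.3% of the naked-overlapping regions of all 3 stages.

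**Figure D2:**
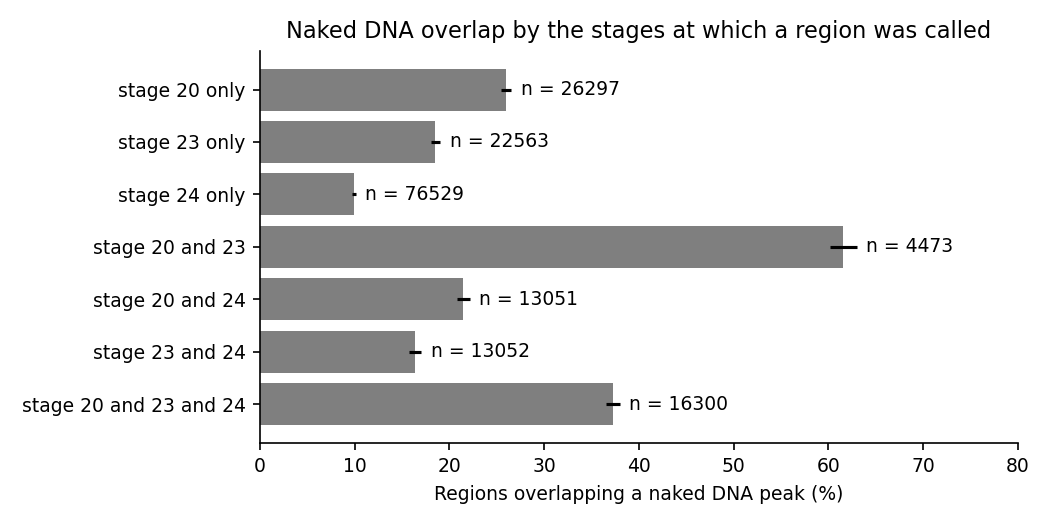
Share of merged embryo regions that overlap a naked DNA peak (x axis, percent) for each set of stages at which they were called, with 95% Wilson intervals and the number of regions. Regions of stages 20 and 23 that were not called at stage 24 have the highest share at 61.6%, and regions of stage 24 only the lowest at 9.90%.

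The pairs of stages were close in width, with a median of 342 bp for regions of stages 20 and 23, 350 bp for stages 20 and 24 and 361 bp for stages 23 and 24. The stage 24 list differs from the earlier ones in its narrowest peak and its length, and their part in the result was not tested.

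Presence in leg libraries was read to see whether the overlap with naked DNA also marked peaks of other samples. Of the naked-overlapping peaks of stage 20, 52.5%, 46.0% and 56.0% were called in embryonic legs 1, 2 and 3, and 46.1%, 51.0% and 42.4% in adult legs 1, 2 and 3. Of its other peaks, 40.7%, 37.9% and 47.8% were called in embryonic legs and 32.0%, 22.6% and 22.7% in adult legs. Naked-overlapping peaks were called more often in every leg library, and the gap was widest in adult leg 2. The ratio of the shares was 1.17 to 1.29 in embryonic legs and 1.44 to 2.26 in adult legs, which did not overlap.

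At stage 23 the naked-overlapping shares were 54.9%, 51.1% and 59.7% in embryonic legs and 51.1%, 52.8% and 47.1% in adult legs. The other peaks of stage 23 were called in 44.2%, 42.9% and 51.2% of cases in embryonic legs and in 38.2%, 25.7% and 27.8% in adult legs. At stage 24 the naked-overlapping shares were 51.2%, 47.2% and 59.2% in embryonic and 43.9%, 41.6% and 36.9% in adult legs, and the other shares 39.9%, 37.8% and 50.5%, and 29.7%, 16.9% and 17.8%. The gap was larger in each adult leg library than in any embryonic leg library at all 3 stages.

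**Figure D3:**
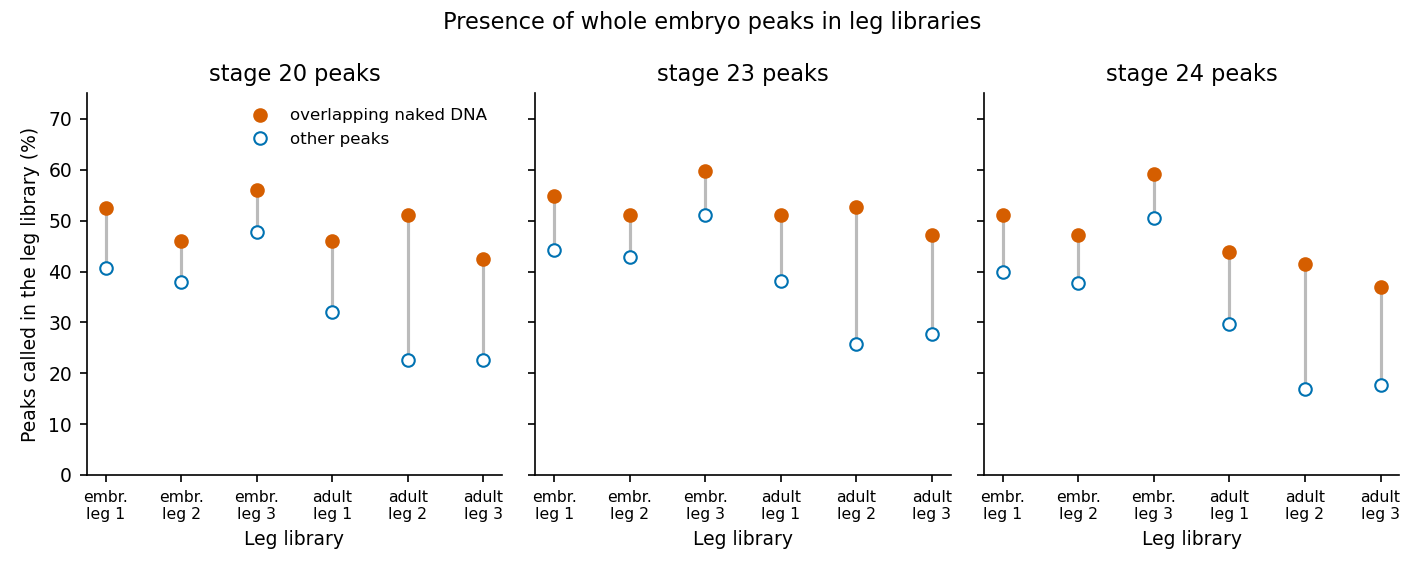
Share of whole embryo peaks called in each leg library (y axis, percent) for peaks that overlap naked DNA (filled) and other peaks (open), 1 panel for each embryo stage and 1 line for each of the 6 leg libraries. The filled point lies above the open one in every library, by 8.08 to 11.7 points in embryonic legs and 12.9 to 28.4 points in adult legs.

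As means over libraries, the difference between classes was smaller in embryonic than in adult legs, and at stage 20 the former minus the latter was −11.4 points (exact two-sided p = 0.1, adjusted p = 0.129, permuting 3 libraries against 3). The classes behind it had 51.5% ± 5.10 and 42.1% ± 5.08 in embryonic legs, and 46.5% ± 4.34 and 25.8% ± 5.41 in adult legs (SD over n = 3 libraries). The value for embryonic minus adult legs was −10.6 points at stage 23 and −9.51 points at stage 24, and the exact permutation test gave p = 0.1, two-sided, adjusted p = 0.129, at each (n = 3 each). A p of 0.1 is the smallest that 3 libraries against 3 allow, and p-values were adjusted over 9 tests by the Benjamini-Hochberg method. Adult leg 2 carried much of the difference, which without it was −7.51 points at stage 20, −6.93 at stage 23 and −6.84 at stage 24. For the other peaks alone, embryonic legs exceeded adult legs by 16.4, 15.5 and 21.3 points at stages 20, 23 and 24 (exact p = 0.1 at each, n = 3 each). The embryonic leg lists were longer, with 87308, 77357 and 119487 peaks against 76268, 49502 and 48324 in adult legs. With all nuclei lists cut to equal length, this excess of other peaks was 9.72, 9.07 and 19.9 points. In the full lists, the excess for naked-overlapping peaks was 4.99 points at stage 20 (exact p = 0.3, n = 3 each), 4.92 points at stage 23 (exact p = 0.2, n = 3 each) and 11.8 points at stage 24 (exact p = 0.1, n = 3 each). When all nuclei lists were cut to equal length, naked-overlapping peaks were instead called less often in embryonic than in adult legs, and the difference was −10.1 points at stage 20 and −8.55 points at stage 23, while at stage 24 embryonic legs stayed higher, by 5.36 points. With naked DNA peaks of a q-value of 1e-05 or less the excess was 1.30, 0.269 and 3.89 points at stages 20, 23 and 24 (exact p = 0.9, 1 and 0.4, n = 3 each). The labels do not say whether leg libraries came from separate animals. Each p thus only ranks this split of the leg libraries among all possible splits.

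With widths matched, the difference came near 0 in embryonic legs at the earlier stages and remained in adult legs. With other peaks weighted to the widths of naked-overlapping peaks, the difference between classes at stage 20 was 0.891, −2.84 and −2.10 points in embryonic legs 1, 2 and 3, and 3.74, 18.3 and 9.46 points in adult legs 1, 2 and 3. At stage 23 it was 2.42, −0.223 and 0.457 points in embryonic and 4.20, 18.8 and 10.5 points in adult legs. At stage 24 it stayed above 0 in all 6 libraries, at 5.997, 4.18 and 3.98 points in embryonic and 9.51, 20.3 and 14.7 points in adult legs. The adult libraries lay above the embryonic ones at each stage. The weighting was chosen after the widths had been seen, and the exact permutation test of embryonic against adult legs, two-sided, gave 0.1 at each stage (n = 3 each).

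Regions called at all 3 embryo stages were then sorted by the number of leg libraries that held them. Among those in all 3 embryonic leg libraries, 15.1% of 1074 overlapped naked DNA where no adult leg library held the region, 19.6% of 1427 where 1 did, 33.9% of 1727 where 2 did and 40.2% of 8212 where all 3 did. Among regions in no embryonic leg library the share was 31.1% of 615 without any adult leg, and 80.5% of 41 with all 3 (95% Wilson interval 66.0% to 89.8%). At any number of embryonic leg libraries, the share thus rose with the number of adult leg libraries. At any number of adult leg libraries it fell with the number of embryonic ones.

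**Figure D4:**
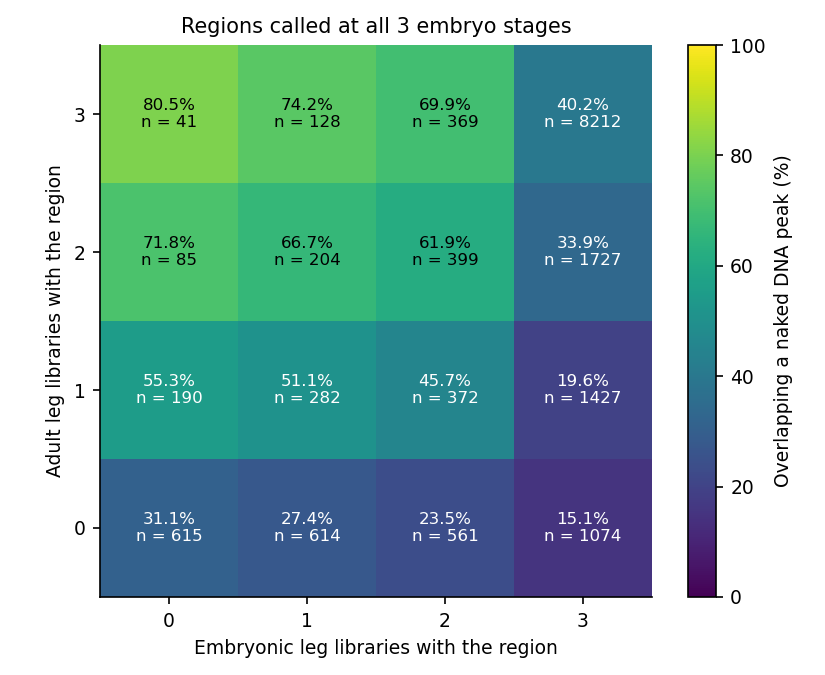
Regions called at all 3 embryo stages, by the number of embryonic (x axis) and adult leg libraries (y axis) that also held them; colour and printed value give the percent overlapping a naked DNA peak and n the number of regions. The share runs from 15.1% in the corner with 3 embryonic and 0 adult leg libraries to 80.5% in the opposite corner.

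Counted per stage, peaks in all 3 embryonic and no adult leg library made up 2.02% of naked-overlapping and 5.89% of other peaks at stage 20, 2.15% and 5.60% at stage 23, and 3.88% and 7.69% at stage 24. The reverse kind, in all 3 adult and no embryonic leg library, was rare in both classes, with 130 of 18169 and 60 of 42266 peaks at stage 20, 107 of 14857 and 93 of 41749 at stage 23, and 88 of 18736 and 168 of 101258 at stage 24. It held a larger share of naked-overlapping peaks at each stage (0.716% against 0.142%, 0.720% against 0.223%, and 0.470% against 0.166%). Peaks found in no leg library were the less frequent kind among naked-overlapping peaks, at 24.7% against 43.4% at stage 20, 23.1% against 39.9% at stage 23 and 25.4% against 39.5% at stage 24.

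Seen from the control, most naked DNA peaks had no counterpart in an embryo. Of the 161533 naked DNA peaks, 131716 (81.5%) overlapped no embryo peak, 16714 (10.3%) met a peak of 1 stage, 7300 (4.52%) of 2 stages and 5803 (3.59%) of all 3. Stage 20 met 17037, stage 23 met 14195 and stage 24 met 17491 of them. The median width of naked DNA peaks was 433 bp without an embryo peak, 525 bp with 1 stage, 584 bp with 2 and 754 bp with 3. Their median fold was 2.62, 2.95, 3.93 and 6.79 in the same order. Stronger and wider naked DNA peaks were thus met at more stages.

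The rise with naked DNA fold lay almost wholly in the last steps. Decile 8 ended at a naked DNA fold of 3.42. The median fold of the embryo lists was higher, at 4.45, 4.34 and 5.79 at stages 20, 23 and 24. Folds of different libraries are not on a common scale. The part that the low depth of the embryo lists had in this rise was not tested. Of the decile with the lowest fold, 3.14% met a peak at stage 20, 2.68% at stage 23 and 6.15% at stage 24. In decile 8 the shares were 7.26%, 6.31% and 9.56%, and in the decile with the highest fold, at 4.58 and above, they were 53.0%, 42.1% and 33.7%. Stage 24 thus had the highest share in the first 8 deciles and the lowest in the last. All 3 stages met 0.730% of the weakest and 22.1% of the strongest decile. Naked DNA peaks met only at stage 24 had a median fold of 2.77, close to the 2.62 of those never met, against 3.44 for those met only at stage 20 and 3.00 for those met only at stage 23.

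**Figure D5:**
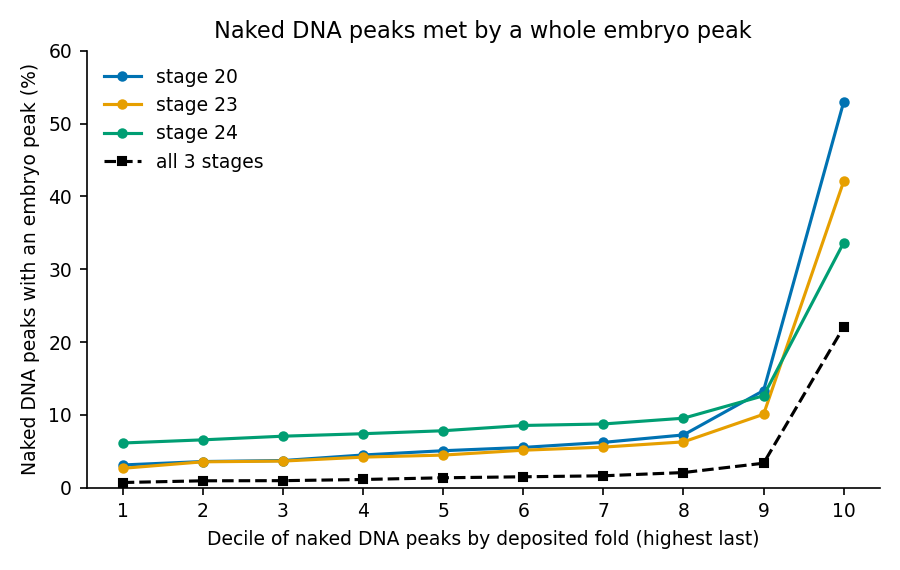
Share of naked DNA peaks that overlap a whole embryo peak (y axis, percent) by the decile of the naked DNA list ranked on deposited fold (x axis), 1 line for each stage and 1 for all 3 stages. The share stays below 10% up to decile 8 and reaches 53.0%, 42.1% and 33.7% at stages 20, 23 and 24 in the last. Decile 8 ends at a fold of 3.42, below the median fold of each embryo list.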

How the data were processed

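The members, groups and tests were chosen with earlier results of these data known. Peaks were deposited as 1 list for each library. Per the submitters' processing notes, MACS2 2.2.7.1, Bowtie2 2.5.4, Picard, bedtools 2.31.1 and SAMtools 1.21 were used, with no role stated. Not given in the sources used here are the genome build, the peak caller's control and cutoff, and whether reads were shifted for Tn5. The lowest deposited −log10 q-value was 1.30 in each list, a q-value of 0.05. The deposited fold, a ratio, and the deposited −log10 p-values describe single peaks as the authors' caller gave them, and the deposited display score was not used. Rows with 1 start and end were counted as 1 peak with several summits. Fold and p-value gave whole-number pileups within 0.002 for at least 99.999% of rows with a −log10 p under 250, and the most frequent expected pileup served as depth.

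Embryos (1 library a stage) allowed no test. Shares carry 95% Wilson, differences Newcombe and medians binomial intervals, and leg libraries were compared by exact permutation. On scaffolds with a peak at 1 Mb or beyond, the strongest 2 peaks per class and stage, and 4 regions and 3 windows per class, are named. Alternatives were another overlap rule, stricter thresholds, long scaffolds only, equal list lengths (48324 peaks), each leg library left out, a pairing of legs by number and, chosen after seeing the data, weighting by width or fold and leaving out stage 24. Overlap counts equalled those of bedtools 2.31.1, and the code was tested on simulated data (Python 3.11.15, numpy 2.4.6, pandas 2.3.3, scipy 1.17.1).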

Additional observations from a re-analysis of the deposited data

Results flagged for a closer look

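Spacing is singled out because its ratio lay below 1 at stages 20 and 23 and not at stage 24. The median distance of naked-overlapping peaks over that of other peaks was 0.621 at stage 20 and 0.721 at stage 23, but 1.01 at stage 24, where the interval of 0.982 to 1.04 gives no direction. Each stage is 1 library and the difference between stages was not tested.

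With other peaks weighted to the same folds, the stage 20 difference in presence was below 0 in all 3 embryonic leg libraries (mean −3.77 points) and above 0 in all 3 adult leg libraries (mean 8.57 points). An exact permutation test of that difference gave p = 0.1, two-sided, which is the lowest that n = 3 each can give.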

How the results depend on the processing

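Values are given for stages 20, 23 and 24 in that order. The share of peaks overlapping naked DNA was 27.2%, 23.4% and 12.7% where 50% of the shorter interval had to be shared, 19.8%, 16.2% and 7.21% with naked DNA peaks of a q-value of at most 1e-05, 24.3%, 21.3% and 13.7% on scaffolds reaching 1 Mb, and 32.9%, 27.7% and 16.6% with equal list lengths. With nuclei lists at a q-value of at most 1e-05 it was 45.8% and 36.1% at stages 20 and 23. The order of the stages held under each of these settings.

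The width ratio was 1.46, 1.32 and 1.09 at the strict nuclei threshold, 1.50 and 1.36 at stages 20 and 23 at the strict naked DNA threshold, and 1.27 and 1.20 at those stages on long scaffolds. The difference in several summits was 15.4, 6.70 and 5.78 points, 11.3, 4.80 and 5.27 points, and 6.62, 2.91 and 3.23 points under those settings, and 8.44 points at stage 20 with the 50% overlap. The spacing ratio at stage 20 was 0.582 with the 50% overlap, at stages 20 and 23 it was 0.433 and 0.507 at the strict naked DNA threshold, and on long scaffolds it was 0.697, 0.821 and 1.08. At stage 24 it was 1.14 at the strict nuclei threshold and reversed to 0.989 and 0.796 with the 50% overlap and the strict naked DNA threshold; the cause was not tested. The difference on short scaffolds was 17.3, 16.9 and 9.73 points with the 50% overlap, 18.9, 19.8 and 8.40 points at the strict nuclei threshold and 25.3, 26.4 and 19.5 points at the strict naked DNA threshold.

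The difference in peaks called at another stage was 17.5 and 29.1 points at stages 23 and 24 with the 50% overlap, 13.5, 23.3 and 42.2 points at the strict naked DNA threshold, 5.03, 11.7 and 23.3 points on long scaffolds and 19.2 points at stage 23 with equal lengths. It was −13.7 points at stage 20 and 1.90 points at stage 23 at the strict nuclei threshold, and 18.4 and 29.2 points at these stages without the stage 24 embryo. Weighting gave −1.19, 8.24 and 21.9 points for 6 width groups, −1.58, 8.10 and 21.8 points for 20 and −3.32, 7.90 and 26.1 points for fold. For the reversals at stage 20 the cause was not tested.

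The difference between classes, embryonic minus adult legs, kept its sign under every setting run but not its size. It was −19.8, −17.6 and −14.6 points with equal lengths, −17.3, −14.3 and −8.52 points at the strict nuclei threshold (exact p = 0.2 at stage 23 and 0.1 at the others, n = 3 each) and −14.5, −14.9 and −17.1 points at the strict naked DNA threshold. Leaving out 1 leg library in turn gave −14.7 to −7.51 points at stage 20, −14.0 to −6.93 at stage 23 and −12.1 to −6.84 at stage 24. For naked-overlapping peaks alone, embryonic minus adult legs was 2.73 to 7.76, 2.70 to 6.97 and 8.42 to 14.4 points with 1 library left out, −10.1, −8.55 and 5.36 points with equal lengths, 8.56, 6.90 and 15.8 points at the strict nuclei threshold, 1.30, 0.269 and 3.89 points at the strict naked DNA threshold and 7.52, 7.79 and 14.2 points on long scaffolds. For other peaks it was 13.5 to 19.5, 13.0 to 19.3 and 17.4 to 25.4 points with 1 library left out, 9.72, 9.07 and 19.9 points with equal lengths and 25.8, 21.2 and 24.3 points at the strict nuclei threshold. A replicate block over same-numbered legs gave the same −11.4, −10.6 and −9.51 points with an exact sign-flip p of 0.25 (n = 3 pairs), the smallest possible. Deviations of same-numbered legs correlated at −0.00974, −0.0343 and 0.0216 over regions, and those of differently numbered legs at −0.0366 to 0.0523. Values this close to 0 cannot decide whether numbers pair the libraries. The low depth of the nuclei lists limits which weak peaks could be called, and the single embryo of each stage leaves the stage differences without a replicate check.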
